A study of Mus musculus with 6 samples.

Results

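Interleukins and colony-stimulating factors are secreted messengers of immune and stromal cells, and a set of 10 of their genes was examined here in lymphatic endothelial cells (LEC) of the mouse: Il6, Il7, Il33, Il1a, Il1b, Csf1, Csf2, Csf3, Lif and the interleukin 33 receptor gene Il1rl1. The genes were chosen by name. Their values are those of probe sets annotated to exactly 1 gene, the brightest by mean where a gene had several. For 9 of the 10 genes such a probe set was listed among the 18193 genes with one, and Il1rl1 was not analysed here. Tumour LEC were cultured from fibrosarcomas that T241 cells carrying VEGF-C and GFP had formed in C57BL/6 mice, and normal LEC from dermis of the tail of female C57BL/6 mice aged 8 weeks. VEGF-C is a growth factor of lymphatic vessels, so its excess is part of the tumour model and the skin cells did not share it. Both kinds of cells were grown in culture and selected with antibodies to LYVE-1, a surface receptor of lymphatic endothelium, and 3 arrays per group were run on 50 ng of RNA each. The source names call the tumour samples LEC, whereas their titles call them fibrosarcoma tumour cells. The source names were followed here, and tumour LEC in the text means these 3 samples. The labels do not say whether the arrays came from separate animals or cultures, so each p-value measures only the spread between these arrays, and the number of arrays limits the precision.

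Interleukin 6 and leukaemia inhibitory factor signal through receptors that share the gp130 chain, and interleukin 7 sustains lymphocytes and is known as a product of lymphatic endothelium. Interleukins 1 alpha, 1 beta and 33 belong to one family that signals through MyD88 to NF-kappaB. The colony-stimulating factors act on myeloid cells: CSF1 on macrophages, GM-CSF (Csf2) on granulocytes and macrophages, and G-CSF (Csf3) on neutrophils.

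Of 12 lymphatic and endothelial markers 11 were above background on every array of both groups. Lyve1 read 14.77, 14.11 and 14.91 in tumour LEC and 14.02, 13.65 and 14.32 in normal LEC, and Prox1, the transcription factor of lymphatic fate, read 7.77 to 8.92 in tumour LEC and 7.73 to 8.30 in normal LEC. All values are log2 expression per probe set. An array value was called at background where it did not exceed the highest of 27 probe sets for absent bacterial RNA, a limit of 3.48 to 3.71 on the tumour arrays and 3.40 to 3.47 on the normal arrays. Of 16 fibroblast markers, 15 were highest in normal replicate 1. In tumour LEC 14 of the 16 were lower without overlap, against 11.6% of all genes tested. Genes were tested where their mean over all arrays exceeded 2.71. Of the 14, Fap (2.31 to 2.41) and Mfap5 (2.23 to 2.37) lay below this value on every tumour array. They were tested only through their normal values, and a gene kept in this way is lower in tumour LEC by selection. The collagen gene Col1a2 was the only one of the 16 fibroblast markers called over all genes (limma adjusted p = 0.0276). Their summed linear signal was 8332 to 13176 in tumour LEC and 50449, 14333 and 13459 in normal replicates 1, 2 and 3. Most of each tumour sum came from Thy1, the brightest of them there. Their mean log2 value was 3.84 to 4.43 in tumour LEC and 10.27, 7.56 and 7.53 in normal replicates 1, 2 and 3. Among the fibroblast genes Pdgfra read 4.66 to 5.74 in tumour LEC and 9.13 to 11.75 in normal LEC, and Col1a2 was at background on 2 tumour arrays and read 11.69 to 14.29 in normal LEC, while Thy1 read 12.97 to 13.67 in tumour LEC and 12.58 to 12.83 in normal LEC. Of 16 leukocyte and macrophage markers 9 were highest in tumour replicate 1. The sum of the 16 was 8415, 2158 and 4472 in tumour replicates 1, 2 and 3 and 2065 to 5152 in normal LEC, so the groups overlapped. Most of the sum in tumour replicate 3 came from the macrophage gene Cd14 (12.00). The mean log2 value of the 16 was 6.26, 4.69 and 4.34 in tumour replicates 1, 2 and 3 and 4.58 to 5.54 in normal LEC. None of the 13 tested leukocyte and macrophage markers had an unadjusted p under 0.05 (limma). The leukocyte antigen gene Ptprc read 5.92 in tumour replicate 1 and was at background on the other tumour arrays and on all normal arrays.

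The promoters of the 3 genes that read above background on every array of at least 1 group and have an entry in the RefSeq promoter table are shown because the inflammatory factors NF-kappaB, AP-1 and C/EBP are known regulators of cytokine genes. Each window runs from 250 bases before to 50 bases after the annotated start, 5′ to 3′ on the gene's strand, in assembly GRCm38.p6. Il6 lies at chr5:30012864-30013163 (plus strand), Csf1 at chr3:107760420-107760719 (minus strand) and Lif at chr11:4257318-4257617 (plus strand). Capitals mark matches to NF-kappaB (searched by its usual consensus), AP-1 (TGANTCA) or C/EBP (TTNNGNAA) on either strand.
Il6: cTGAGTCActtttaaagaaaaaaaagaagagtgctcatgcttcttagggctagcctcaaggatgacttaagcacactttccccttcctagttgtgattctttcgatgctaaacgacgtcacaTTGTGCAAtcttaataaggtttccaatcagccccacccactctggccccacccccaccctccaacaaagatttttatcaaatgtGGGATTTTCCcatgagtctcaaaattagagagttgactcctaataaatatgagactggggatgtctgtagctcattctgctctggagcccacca
Csf1: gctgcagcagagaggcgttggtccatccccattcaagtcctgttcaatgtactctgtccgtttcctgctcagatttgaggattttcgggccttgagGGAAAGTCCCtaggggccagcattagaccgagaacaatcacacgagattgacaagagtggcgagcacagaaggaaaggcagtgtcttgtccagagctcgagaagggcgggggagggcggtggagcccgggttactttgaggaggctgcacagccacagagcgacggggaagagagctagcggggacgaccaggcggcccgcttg
Lif: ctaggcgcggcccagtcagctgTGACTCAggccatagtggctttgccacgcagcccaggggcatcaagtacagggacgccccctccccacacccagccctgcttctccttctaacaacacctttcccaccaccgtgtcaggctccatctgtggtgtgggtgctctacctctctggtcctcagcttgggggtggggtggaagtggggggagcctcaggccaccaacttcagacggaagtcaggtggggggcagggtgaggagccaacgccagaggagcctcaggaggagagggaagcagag

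The Il6 window held a match to each motif, with the NF-kappaB match GGGATTTTCC at positions -44 to -35, AP-1 at -249 to -243 and C/EBP at -128 to -121 from the start. The Csf1 window held only an NF-kappaB match, GGAAAGTCCC at -154 to -145, and the Lif window only an AP-1 match, at -228 to -222. Of 32851 promoter windows of this length, 4.51% held the NF-kappaB motif, 7.81% AP-1 and 40.7% C/EBP. A match describes letters and shows no binding.

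No interleukin or colony-stimulating factor gene was called different between the cultures from tumour and those from skin. Of the 9 genes, 6 exceeded the filter on low values (Il6, Il7, Il33, Csf1, Csf3 and Lif), and 0 of these 6 were called at an adjusted p under 0.05 (limma, Benjamini-Hochberg over 12954 genes), where 0.216% of all genes tested were called. Without adjustment 1 of the 6, Il6, had a p under 0.05, against 15.5% of all genes. Il6 was also the only one of the 6 whose arrays did not overlap between the groups, against 32.4% of all genes tested in either direction and 11.6% lower in tumour LEC. The median difference over the 6 was 0.36 and 4 were positive, beside a median of 0.028 and 6878 positive of 12954 over all genes tested. With other processing the median of the cytokine genes ranged from 0.074 (no filter) to 0.41 (array weights). In the simulated data described with the methods 66% of genes with a 4-fold change (2 log2 units) were recovered. That share is an average over genes with independently drawn noise, and it need not hold for these arrays or for a gene as variable as Il6. Among the measured fibroblast markers Col1a2 (-9.38) was called. Loxl1 (-6.36, limma adjusted p = 0.0577) and Pdgfra (-5.03, limma adjusted p = 0.0828) were not. A gene that missed the threshold is therefore not shown to be equal in the groups.

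**Figure D1:**
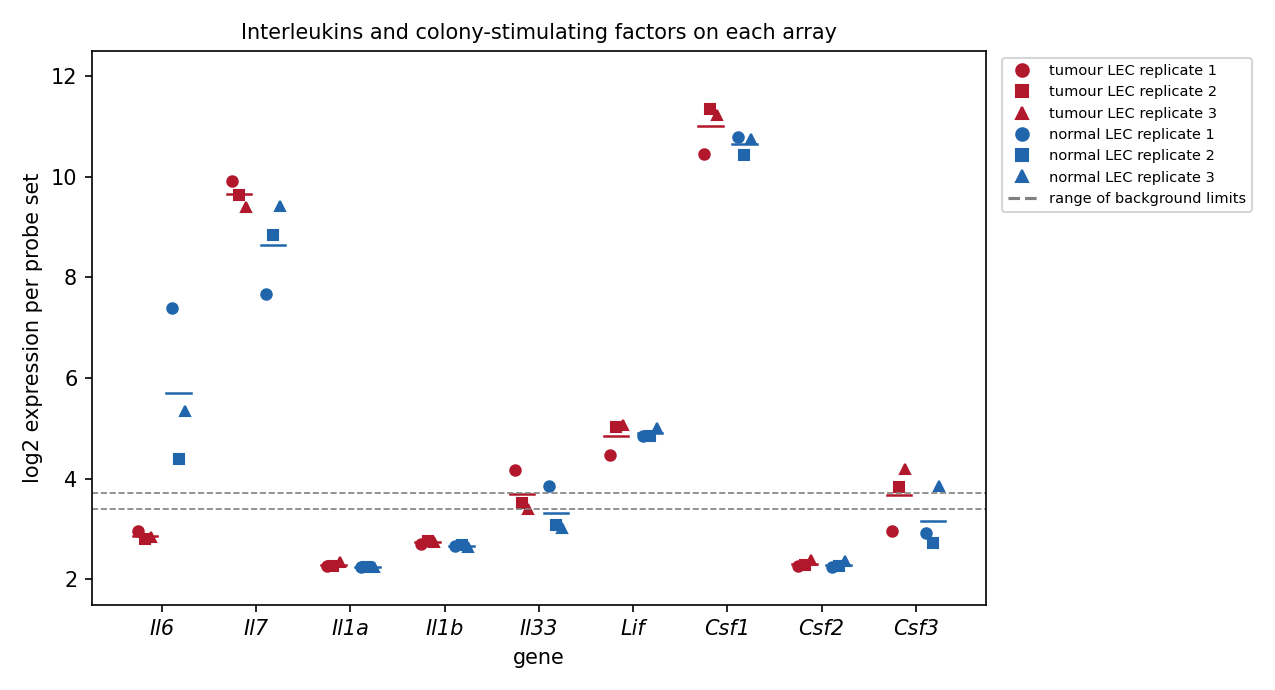
Log2 expression of the 9 measured genes on each array, tumour LEC (red, left of each pair) and normal LEC (blue, right), with a line at each group mean (n = 3) and dashed lines at the lowest and highest background limit (3.40 and 3.71). Il6 was at background in tumour LEC and above it in normal LEC, Il7, Csf1 and Lif were above it on all arrays, and Il1a, Il1b and Csf2 were below it on all arrays.

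Il6, the inflammatory cytokine of the gp130 family, was detected on the normal arrays only. It read 2.97, 2.79 and 2.85 in tumour LEC, all at background, and 7.39, 4.38 and 5.35 in normal LEC, all above background. The groups did not overlap, and the normal arrays spread widely, with replicate 1 highest. Tumour LEC averaged 2.87 ± 0.09 and normal LEC 5.71 ± 1.53 (SD, n = 3 each), a difference of -2.84 (SE 0.75, 95% interval -4.72 to -0.96, limma adjusted p = 0.20, unadjusted p = 0.0106). Taken against the background limit, Il6 in tumour LEC lay at least 4.40-fold below its level in normal LEC. That bound rested on the spread of the normal arrays, and it was 2.46 without normal replicate 1 and 6.96 without normal replicate 2. Its tumour values also exceeded the filter value of 2.71, so it was not kept through the normal arrays alone. Among the tested genes 1.51% had a larger absolute difference.

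Normal replicate 1, where Il6 was highest, was also the array with the highest fibroblast markers, which were above background there for all 16, with 14 of 16 above it on each of the other normal arrays and 5, 9 and 12 on tumour replicates 2, 3 and 1. Without normal replicate 1 the Il6 difference was -2.00 (SE 0.32, limma adjusted p = 0.135), and the remaining 2 normal arrays still lay above all tumour arrays. The part of the fibroblast signal in the Il6 difference was not tested. In such bulk samples fewer cells of a type and less RNA per cell cannot be told apart.

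The 3 tested genes whose values followed those of Il6 most closely over the 6 arrays, by Euclidean distance between log2 profiles centred on their means, were Mapk13, a stress-activated kinase, Adamtsl5, a secreted relative of the ADAMTS proteases, and Morc1. Mapk13 lay at a distance of 0.281 and read 3.98, 3.99 and 4.16 in tumour LEC and 8.37, 5.41 and 6.45 in normal LEC. Adamtsl5 (0.344) was at background in tumour LEC and read 6.37, 3.54 and 4.54 in normal LEC. With 2.11 to 2.21 in tumour LEC it exceeded the filter value of 2.71 through the normal arrays. Morc1 (0.387) was at background in tumour LEC as well and read 7.25, 4.35 and 4.90 in normal LEC. These 3 genes shared with Il6 the highest value in normal replicate 1 and the lowest of the normal values in normal replicate 2. Such a shared order follows from choosing genes by their distance. The likeness, here as for Il7 and Csf3 below, is a description over 6 arrays that fall into 2 groups, with no test.

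**Figure D2:**
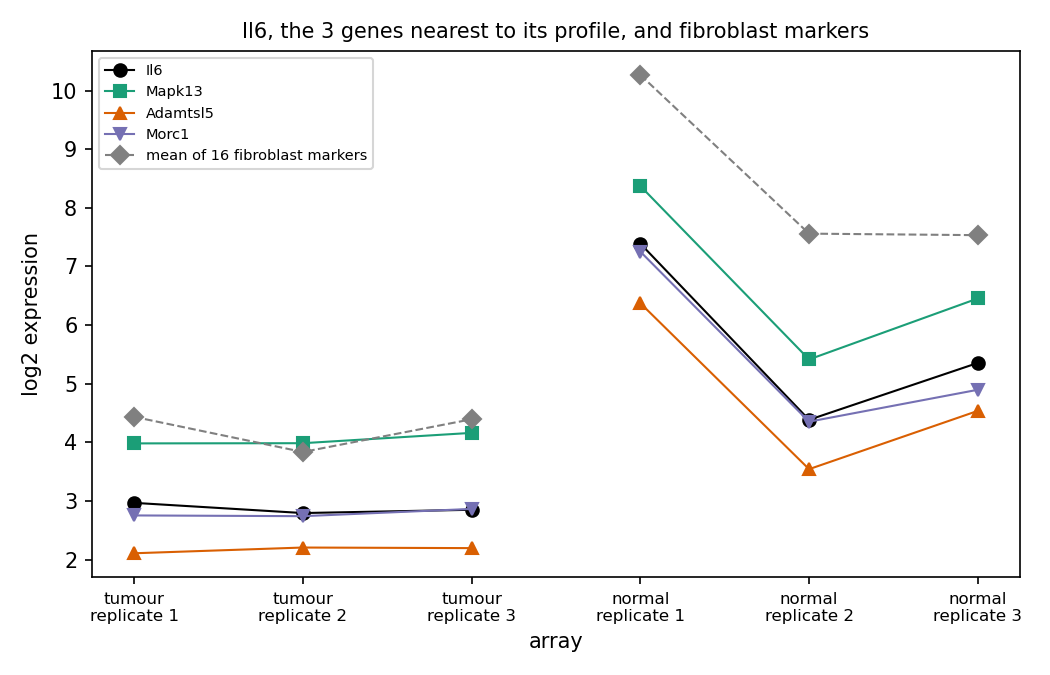
Log2 expression of Il6, of the 3 genes nearest to its profile and the mean of 16 fibroblast markers on each array (tumour LEC left, normal LEC right; lines join arrays of a group for reading only and imply no order). All lines are highest in normal replicate 1, where Il6 read 7.39, and low on the 3 tumour arrays, where Il6 read 2.79 to 2.97.

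Il7, whose product maintains T cells and innate lymphoid cells, was well above background on every array. It read 9.91, 9.64 and 9.41 in tumour LEC and 7.68, 8.85 and 9.42 in normal LEC. The groups overlapped, since normal replicate 3 lay just above tumour replicate 3, and normal replicate 1 was the lowest. Tumour LEC averaged 9.65 ± 0.25 and normal LEC 8.65 ± 0.89 (SD, n = 3 each), a difference of 1.00 (SE 0.46, 95% interval -0.14 to 2.14, limma adjusted p = 0.366). The other Il7 probe set differed by 0.63, and it too was lowest in normal replicate 1, at 5.41. Without normal replicate 1 the difference of the brighter probe set was 0.52 (SE 0.25, limma adjusted p = 0.553).

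Of the 12 lymphatic and endothelial markers 4 were lowest in normal replicate 1 (Pecam1, Cdh5, Tek and Emcn), 3 in normal replicate 2, 1 in normal replicate 3, 3 in tumour replicate 2 and 1 in tumour replicate 1. Pecam1 read 8.08 to 8.86 in tumour LEC and 5.59, 7.39 and 8.22 in normal LEC, and Cdh5 read 11.52 to 11.65 in tumour LEC and 9.62, 10.79 and 11.37 in normal LEC. The part of these genes in the Il7 values was not tested. The genes nearest to the Il7 profile were Fabp4, a fatty acid carrier of capillary endothelium (distance 0.260), Arhgap31, a GTPase-activating protein for CDC42 and RAC1 (0.404), and Fam110c (0.454). Fabp4 read 14.48, 14.43 and 13.91 in tumour LEC and 12.36, 13.42 and 13.91 in normal LEC, again with the lowest value in normal replicate 1.

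Lif, the other gp130 ligand of the set, was above background on every array and nearly level. It read 4.46, 5.03 and 5.06 in tumour LEC and 4.85, 4.85 and 5.02 in normal LEC, so that the tumour arrays lay on both sides of the normal ones. The difference was -0.06 (SE 0.19, 95% interval -0.54 to 0.42, limma adjusted p = 0.88), and its sign turned with quantile normalization (0.17). The second Lif probe set was at background on all arrays.

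Of the interleukin 1 family members in the set, Il1a and Il1b were at background and Il33 was close to it. Il33, an alarmin stored in the nuclei of endothelial and epithelial cells, read 4.18, 3.52 and 3.39 in tumour LEC and 3.85, 3.08 and 3.03 in normal LEC, and only replicate 1 of each group exceeded its background limit. The difference was 0.38 (SE 0.32, 95% interval -0.41 to 1.17, limma adjusted p = 0.56) and 0.14 without tumour replicate 1. Il1a and Il1b, the classical inflammatory members, were at background on all 6 arrays and did not pass the filter, with Il1b at a mean of 2.70 just under the filter value of 2.71. Il1a read 2.26 to 2.35 in tumour LEC and 2.24 on each normal array, and Il1b read 2.71 to 2.76 in tumour LEC and 2.64 to 2.68 in normal LEC. Both were without overlap higher on the tumour arrays, where the background limit was higher as well, and no fold is given for genes at background in both groups. Il18, a family member outside the set that was named after its values were seen, was above background on all arrays, at 6.89, 5.57 and 5.60 in tumour LEC and 6.90, 5.53 and 5.40 in normal LEC, with a difference of 0.08 (SE 0.55, limma adjusted p = 0.949).

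Csf1 was the colony-stimulating factor with clear signal in both groups. It read 10.46, 11.35 and 11.22 in tumour LEC and 10.79, 10.44 and 10.75 in normal LEC, and the groups overlapped because tumour replicate 1 lay among the normal arrays. Tumour LEC averaged 11.01 ± 0.48 and normal LEC 10.66 ± 0.19 (SD, n = 3 each), with a difference of 0.35 (SE 0.27, 95% interval -0.32 to 1.02, limma adjusted p = 0.537). Without tumour replicate 1 the difference was 0.63 (SE 0.16, limma adjusted p = 0.182). The other 3 Csf1 probe sets differed by -0.17, 0.07 and -0.29, so the probe sets did not share a sign, and the mean over all 4 gave -0.01.

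Csf3 hovered at the background limit. It read 2.97, 3.84 and 4.20 in tumour LEC, with replicate 1 at background, and 2.92, 2.72 and 3.86 in normal LEC, with replicates 1 and 2 at background. The groups overlapped, and the difference was 0.50 (SE 0.44, 95% interval -0.59 to 1.59, limma adjusted p = 0.57). The genes nearest to its profile were Arf2, a small GTPase (distance 0.426), Ccn1, a matricellular protein gene known as Cyr61 (0.462), and Mllt3 (0.479), a subunit of a transcription elongation complex. Ccn1 read 12.80, 13.68 and 14.07 in tumour LEC and 13.00, 12.57 and 13.31 in normal LEC, with the highest value of each group in replicate 3, as for Csf3. Csf2 was at background on all arrays, at 2.27 to 2.38 in tumour LEC and 2.24 to 2.36 in normal LEC, and was not tested.

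**Figure D3:**
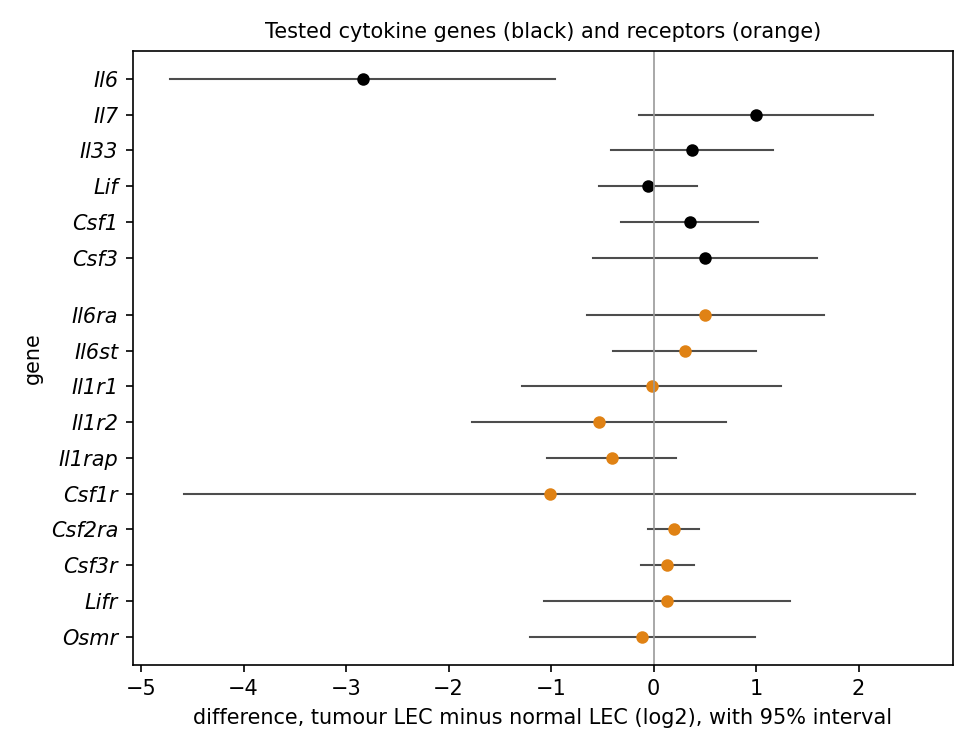
Difference between tumour and normal LEC in log2 units (points) with its 95% interval from limma (lines) for the 6 tested cytokine genes (black) and 10 tested receptors and decoys (orange). The Il6 interval, -4.72 to -0.96, lies below 0, and the others include 0. The intervals are not adjusted for the number of genes.

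The receptors of these cytokines were present for some ligands and at background for others, and none differed past the threshold. Of 14 receptor and decoy genes 13 had a probe set annotated to exactly 1 gene and 10 were tested. Of these 10, 0 passed (limma, over all genes) and 0 had an unadjusted p under 0.05, where 15.5% of all genes did. The median difference was 0.06 with 5 on each side. The gp130 chain gene Il6st read 11.15 to 11.32 in tumour LEC and 10.54 to 11.56 in normal LEC, with a difference of 0.30 (SE 0.28) that was -0.31 with the mean of its probe sets. The ligand-binding chain gene Il6ra read 6.69, 5.02 and 5.42 in tumour LEC and 5.59, 5.02 and 5.01 in normal LEC, with a difference of 0.50 (SE 0.46) that was 0.01 without tumour replicate 1, the array with the highest leukocyte markers. Lifr, the receptor of LIF, differed by 0.13 (SE 0.48), or by -0.28 without tumour replicate 1, and Osmr, which pairs with gp130 for oncostatin M, by -0.11 (SE 0.44).

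For interleukin 1 the signalling receptor and its partner chain had signal on all arrays. Il1r1 read 7.67, 8.48 and 8.41 in tumour LEC and 9.27, 7.63 and 7.72 in normal LEC, with a difference of -0.02 (SE 0.51, limma adjusted p = 0.986) and of 0.51 without normal replicate 1. Il1rap, which also serves the interleukin 33 receptor, differed by -0.41 (SE 0.25). The decoy receptor gene Il1r2 was above background on normal replicate 1 alone, at 4.68, and Il1rn, the interleukin 1 receptor antagonist, was at background on all arrays.

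Receptors of the myeloid factors were at background for 3 of 5 genes. Csf1r, the receptor of CSF1 on macrophages, read 8.58, 3.77 and 3.88 in tumour LEC and 7.20, 5.25 and 6.82 in normal LEC. The difference was -1.01 (SE 1.43, 95% interval -4.58 to 2.55, limma adjusted p = 0.711). Tumour replicate 1 held the highest value and the other tumour arrays the lowest, and without that array, where the leukocyte markers were highest, the difference was -2.60 (SE 0.63, limma adjusted p = 0.177). The part of the leukocyte markers in the Csf1r values was not tested. Csf2ra read 4.15 to 4.27 in tumour LEC and 3.97 to 4.08 in normal LEC, with a difference of 0.20 (SE 0.10, limma adjusted p = 0.40). Csf2rb, Csf2rb2 and Csf3r were at background on all arrays, as was Il7r, the receptor of interleukin 7.

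**Figure D4:**
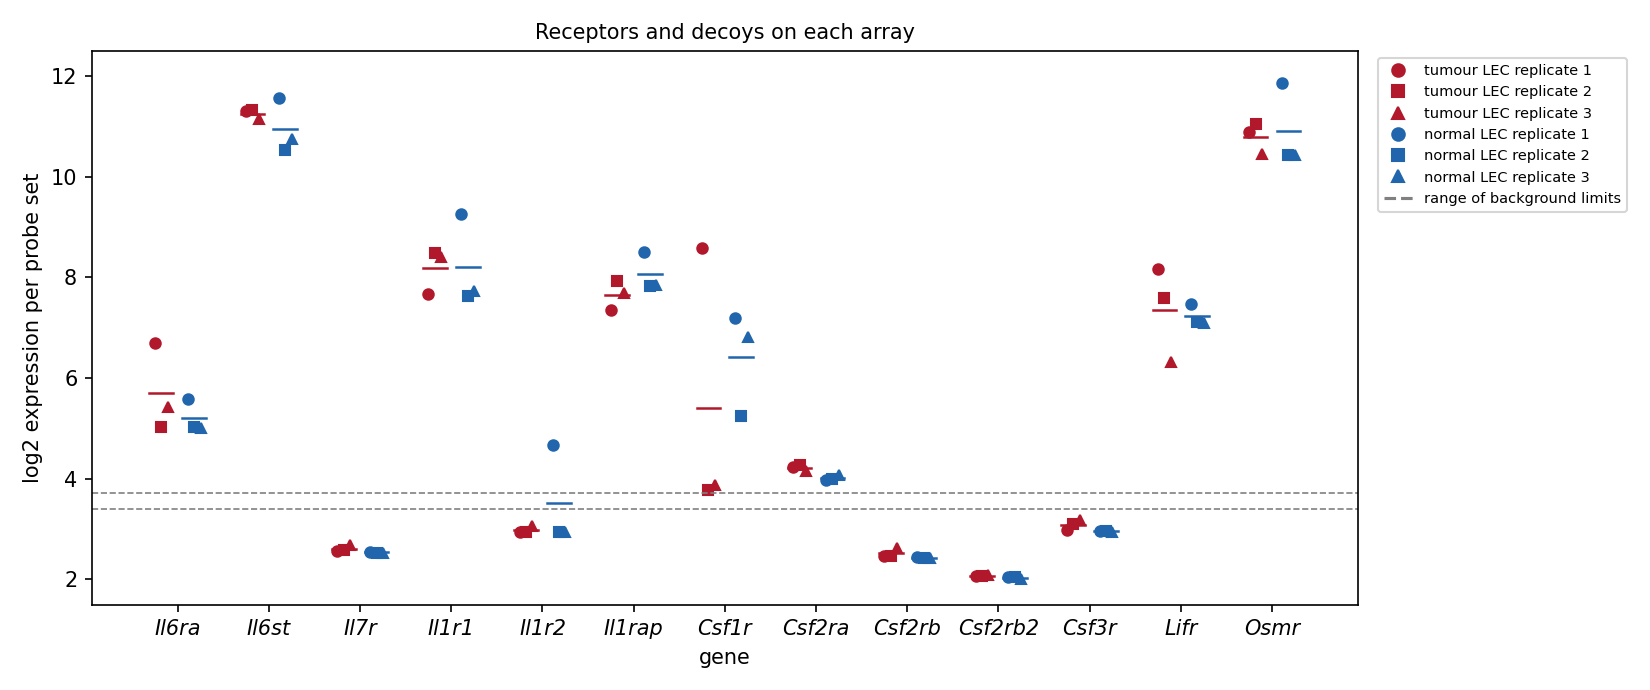
Log2 expression of 13 receptor and decoy genes on each array, tumour LEC (red, left of each pair) and normal LEC (blue, right), with a line at each group mean (n = 3) and dashed lines at the lowest and highest background limit. Csf1r spans the widest range, with 8.58 in tumour replicate 1 and 3.77 and 3.88 on the other tumour arrays.

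Other ligands of the same families mostly read at background in both groups. Of 37 such genes 32 had a probe set annotated to exactly 1 gene, 25 of them at background on all arrays. Of the 32, 11 were tested and 0 passed (limma, over all genes), with a median difference of 0.04. Without overlap 3 were higher and 1 lower in tumour LEC, beside 20.9% and 11.6% of all genes tested. The 3 higher ones, Il1f5, Il13 and Il23a, were at background on all arrays. An unadjusted p under 0.05 (limma) was found for 1 of the 11, where 15.5% of all genes had one. That gene was Kitl, the ligand of the KIT receptor on mast cells and melanocytes, which read 8.28, 7.15 and 7.23 in tumour LEC and 11.34, 9.85 and 9.62 in normal LEC. The groups did not overlap, the difference was -2.72 (SE 0.56, limma adjusted p = 0.128, unadjusted p = 0.00334), and normal replicate 1 was again the highest. Without it the difference was -2.18. Tslp, an epithelial cytokine that shares a receptor chain with interleukin 7 and was picked after its values were seen, read 6.17, 8.40 and 9.94 in tumour LEC and 4.86, 6.25 and 7.31 in normal LEC. Its groups overlapped, with a difference of 2.03 (SE 1.10, limma adjusted p = 0.431).

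Genes that process and relay interleukin 1 were measured for 28 of 32 entries, and 26 were tested. None passed over all genes (limma), and 5 had an unadjusted p under 0.05, where 15.5% of all genes did. Positive were 19 of 26 differences with a median of 0.22, beside 6878 of 12954 over all genes tested with a median of 0.028. The groups did not overlap for 8 genes, all higher in tumour LEC, where 20.9% of all genes were higher without overlap. Among the 8, Tab1 was at background on all arrays, with a difference of 0.03. Casp1, the protease that matures interleukin 1 beta, read 6.87, 6.08 and 5.55 in tumour LEC and 5.24, 3.63 and 4.47 in normal LEC, with a difference of 1.72 (SE 0.52, limma adjusted p = 0.228). Irak2, a kinase of the interleukin 1 receptor complex, read 5.49, 5.98 and 6.41 in tumour LEC and 4.61, 3.77 and 4.85 in normal LEC, with a difference of 1.55 (SE 0.37, limma adjusted p = 0.163). Gsdmd, the pore protein through which interleukin 1 beta leaves cells, differed by 0.63 (SE 0.16, limma adjusted p = 0.187).

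In the JAK-STAT relay that serves gp130 and the common gamma chain, 17 of 18 genes were tested and 0 passed over all genes (limma), with 4 at an unadjusted p under 0.05, 5 higher and 1 lower without overlap, and a median of 0.22. Of all genes tested 15.5% had such a p, 20.9% were higher and 11.6% lower without overlap. The list median was 0.004 with the mean of each gene's probe sets. Socs2, a feedback inhibitor of cytokine receptors, read 8.14, 8.05 and 8.75 in tumour LEC and 7.08, 7.17 and 7.41 in normal LEC, a difference of 1.09 (SE 0.22, limma adjusted p = 0.125). The adaptor Gab2 differed by 0.92 (SE 0.25), the kinase Jak2 by 0.65 (SE 0.23) and Pias3, an inhibitor of STAT3, by -0.45 (SE 0.14), each with an adjusted p of 0.20 to 0.285. Socs3, the feedback inhibitor induced by interleukin 6 and LIF and picked after its values were seen, overlapped between the groups, at 11.59, 10.44 and 10.79 in tumour LEC and 10.63, 10.04 and 9.39 in normal LEC.

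Regulators of cytokine mRNA decay and transcription were tested for 22 of 23 entries, and 0 passed over all genes (limma), with 4 at an unadjusted p under 0.05, beside 15.5% of all genes, and a median of -0.12. The AP-1 subunits went both ways. Fosl1 read 8.16, 8.59 and 9.23 in tumour LEC and 10.08, 10.48 and 10.37 in normal LEC, a difference of -1.65 (SE 0.30, limma adjusted p = 0.101), and Jun differed by -0.26 (SE 0.16). Fosl2 differed by 1.10 (SE 0.31) and Fos by 1.27 (SE 0.54), with 14.36 in tumour replicate 3. Ets1, an endothelial transcription factor, read 9.72, 9.92 and 9.72 in tumour LEC and 8.82, 8.52 and 8.91 in normal LEC, a difference of 1.04 (SE 0.15, limma adjusted p = 0.0778).

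**Figure D5:**
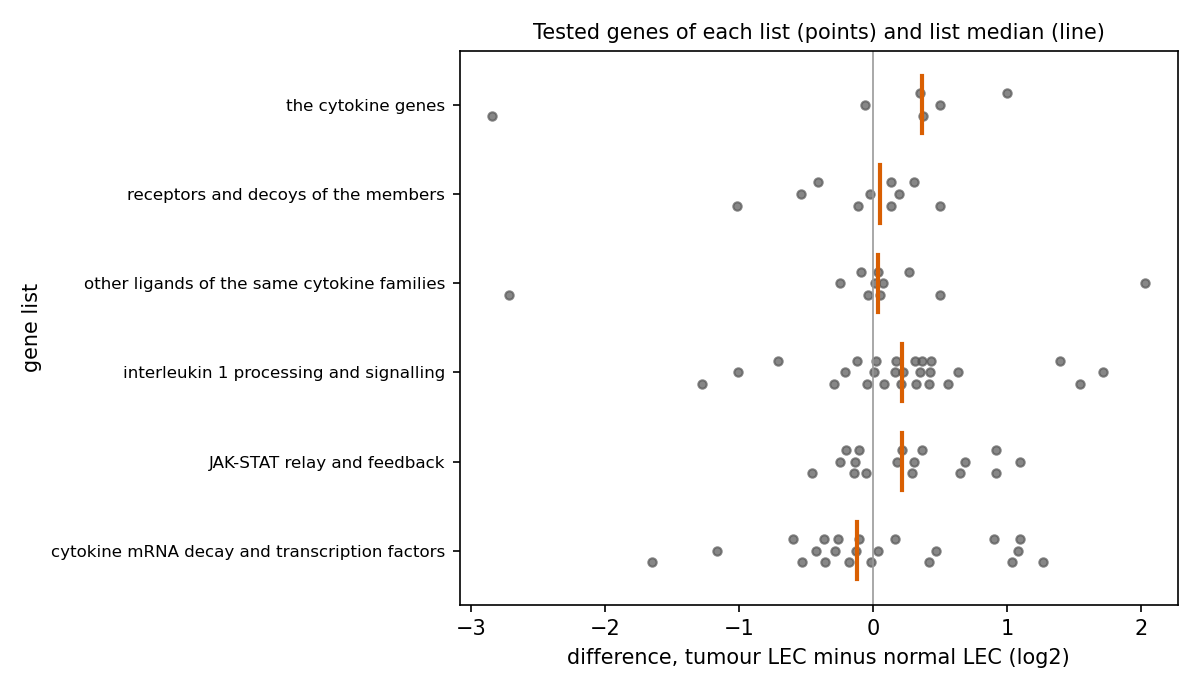
Differences between tumour and normal LEC in log2 units for the tested genes of each list (points, spread vertically for reading only) and the list median (orange line). The lowest points are Il6 (-2.84) among the cytokine genes and Kitl (-2.72) among the other ligands, and the list medians lie between -0.12 and 0.36.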

How the data were processed

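The deposited values were log2 expression per probe set for 6 Affymetrix arrays of 45101 probe sets. RMA and GCRMA are named, with no versions, role or order, per the submitters' processing notes, and which of them made the authors' values is not stated. GCRMA compresses weak signals near a lower limit, which makes differences of dim probe sets uncertain. Gene names came from GEO's annotation of the array and a RefSeq table of GRCm38.p6 (34945 with 1 gene, 932 with several, 9160 with none listed). No level was compared between probe sets of different genes.

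Tumour and normal LEC were compared with limma 3.58.1 in R 4.3.3 (lmFit and eBayes, two-sided), on genes with a mean above the 40th percentile (2.71), which left 12954. The smallest p of an exact permutation of 3 against 3 arrays is 0.1, and it was not used. Simulated data drew independent normal noise around each gene's mean, with the gene's spread within groups. In them 50 genes each were changed by 1, 2, 4 and 8 log2 units. Of these 44%, 66%, 92% and 98% were recovered, with 4 false among 154 calls.

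The genes, lists and rules were chosen with earlier results of these data known. Named were all listed cytokine genes, the main receptors, and of each other list the genes past the threshold or else up to 3 per direction with the largest difference, groups that did not overlap and signal above background. For marker lists these were the 2 brightest genes, with Ptprc, Pdgfra, Lyve1 and Prox1. Other genes named beside them, such as Tslp, Il18, Socs3, Tnfaip3, Atf3, Osmr, Il1r2, Pecam1 and Cdh5, were picked after their values were seen. The 15 alternatives concerned the filter, the normalization, the variance model, array weights, the choice of probe sets, the replicate block and each array left out.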

Additional observations from a re-analysis of the deposited data

How the results depend on the processing

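Under each of the 15 alternatives 0 cytokine genes and 0 receptors passed. Il6 was lower in tumour LEC in all 15, with differences of -3.50 to -2.00 and limma adjusted p from 0.0966 (array weights) to 0.395. Il7, Il33 and Csf3 kept a positive sign in all 15. The sign turned for Csf1 with the mean of its probe sets (-0.00799), for Lif with quantile normalization (0.17) and array weights (0.0493), for Il6st with the mean of its probe sets (-0.31), and for Il1r1 with quantile normalization (0.0611) and array weights (0.27). Without single arrays Lif ranged from -0.16 to 0.14, Il1r1 from -0.31 to 0.51 and Lifr from -0.28 to 0.65. With array weights 2 genes of the mRNA decay and transcription list passed, Ets1 (adjusted p = 0.0264) and Fosl1 (adjusted p = 0.024), and 1 of the other ligands, Kitl (adjusted p = 0.0479). Of all genes 28 were called, against 10 with no filter, 97 with the 60th percentile filter, 385 with array weights and 4 to 81 without single arrays. The cause was not tested, and leaving out an array also leaves fewer samples. The same replicate numbers in both groups are not said to pair arrays, and deviations from the group means correlated at 0.193, 0.326 and -0.00383 over genes for the 3 numbers. With the replicate block 46 genes were called over all genes, Il6 stayed at -2.84 (adjusted p = 0.156) and 1 of the other ligands, Kitl, passed (adjusted p = 0.0459). Signal over background limits Il33 and Csf3, and Il1a, Il1b and Csf2 have no measured level in either group.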

Other observations

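Csf3 and Tslp had the highest value of each group in replicate 3, and so did Tnfaip3 and Atf3. Tnfaip3, the NF-kappaB feedback gene that encodes A20, read 7.18, 9.46 and 9.86 in tumour replicates 1, 2 and 3 and 6.65, 7.52 and 8.15 in normal replicates 1, 2 and 3. Atf3, a stress-induced transcription factor, read 5.82, 7.07 and 7.30 in tumour LEC and 5.20, 5.80 and 5.95 in normal LEC. Neither passed the test between the groups (limma adjusted p = 0.449 for Tnfaip3 and 0.329 for Atf3), and both were picked after their values were seen. Nfkbiz, also picked after its values were seen, was highest in replicate 3 of both groups (10.38 in tumour LEC, 10.26 in normal LEC). Fos (14.36), Zfp36 (8.66) and Junb (7.35) were highest in replicate 3 of the tumour arrays but not of the normal arrays. Among the normal arrays Fos was lowest in replicate 3 (11.54), and Zfp36 (9.59) and Junb (7.48) were highest in replicate 1. Socs3 was highest in replicate 1 of both groups (11.59 in tumour LEC, 10.63 in normal LEC).

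Of 9 keratinocyte markers 3 or 4 were above background on each tumour array and 4 or 5 on each normal array. Of 13 mast cell and lymphocyte markers 2 to 4 were above it on the tumour arrays and 2 or 3 on the normal arrays. The summed linear signal of 9 keratinocyte markers was 191.7 to 194.8 in tumour LEC and 225.1 to 238.1 in normal LEC, with Krt10 (6.76 to 6.95 in tumour LEC, 7.09 to 7.17 in normal LEC) and Lor the brightest. Of the 7 tested 3 were higher and 3 lower in tumour LEC without overlap, beside 20.9% and 11.6% of all genes tested. The higher ones were Krt5, Trp63 and Ivl, the last 2 at background on all arrays. The lower ones were Krt10, Dsc3 and Pkp1, with Pkp1 at background on all tumour arrays and on normal replicate 1. With 2.09 to 2.13 in tumour LEC, Pkp1 exceeded the filter value of 2.71 only through the normal arrays. The summed signal of 13 mast cell and lymphocyte markers was 91.3, 96.6 and 185.4 in tumour LEC and 85.1 to 88.5 in normal LEC. Kit, the receptor of the Kitl product, read 6.48 in tumour replicate 3 and at most 4.03 on the other arrays, and Cd4 read 4.29 there. All 13 were highest in tumour replicate 3, the array with the highest background limit (3.71), and 9 of them were at background on all arrays. The macrophage genes Cd14 and Cd68, the 2 brightest of the 16 leukocyte and macrophage markers, were above background on all arrays. They read 10.31 to 12.00 and 4.82 to 10.88 in tumour LEC and 10.18 to 11.33 and 8.45 to 9.57 in normal LEC. Cd14 was highest in tumour replicate 3, where Cd68 was lowest. Of the 16 markers 5, such as Itgam and Itgax, were at background on all arrays.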
